A study of Mus musculus with 4 samples.

Results

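The olfactory receptor genes with a signal above background in dorsal hippocampus numbered 129 of the 1070 olfactory receptor genes that had a probe matched on the array (12.1%). They were chosen by the scanner software's own flag: a gene entered when a probe of it was flagged as well above background on all 4 arrays, and its brightest probe stood for it. The flags of both groups chose the members, so the detection counts and levels are given as descriptions with no test. Over all 22911 named genes, 16169 (70.6%) met the same condition.

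The arrays profiled total RNA of dorsal hippocampus from female mice, taken after a series of behavioural tests, in a study of excess iodine intake and brain development. The control group had 2 arrays (replicates 2 and 3), and the group on a 20-fold iodine intake had 2 (replicates 2 and 3). The labels give no strain, age, duration or route of intake, nor whether the replicates came from separate animals, so a p-value here reflects the spread of these samples alone, and that spread may be technical. A single slide and scan held the 4 arrays, with controls in slide columns 1 and 2 and iodine samples in columns 3 and 4, so position and group cannot be told apart. Between 37533 and 37921 of 56605 probes (66.3 to 67.0%) were well above background per array, no spot was saturated, and 9 of 9 hippocampal marker genes were well above background on all 4 arrays. Values are log2 processed signals scaled to each array's 75th percentile, called normalized log2 signals, and the number of arrays limits their precision.

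Olfactory receptors are G protein-coupled receptors for odorants, and they form the largest gene family of the mouse genome. Each sensory neuron of the nose is known to express a single receptor gene, whose protein couples to the G protein subunit Gnal, the adenylyl cyclase Adcy3 and a cyclic nucleotide-gated channel. Class I receptors resemble those of fish and class II receptors form the larger, land vertebrate group. Transcripts of some of these genes are also known from tissues outside the nose. In a piece of bulk tissue, fewer cells that express a gene and less RNA per cell cannot be told apart.

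The stretches of 250 bases before the transcription start are shown for 5 members on which the results turn: Olfr544 and Olfr173, which are among the 3 brightest probes, Olfr722 and Olfr122, which had the smallest unadjusted p-values among the members higher in iodine, and Olfr124, a near neighbour of Olfr122. They come from RefSeq, assembly GRCm38.p6, 5′ to 3′ on the strand of the gene. The windows lie at chr7:102488308-102488557 (minus strand) for Olfr544, chr16:58797943-58798192 (minus strand) for Olfr173, chr14:49901942-49902191 (minus strand) for Olfr722, chr17:37768392-37768641 (plus strand) for Olfr122 and chr17:37804819-37805068 (plus strand) for Olfr124. Capitals mark matches, on either strand, to the TATA box letters TATAAA (shown as TTTATA where the match is on the opposite strand) or to the homeodomain core TAATTA.
Olfr544: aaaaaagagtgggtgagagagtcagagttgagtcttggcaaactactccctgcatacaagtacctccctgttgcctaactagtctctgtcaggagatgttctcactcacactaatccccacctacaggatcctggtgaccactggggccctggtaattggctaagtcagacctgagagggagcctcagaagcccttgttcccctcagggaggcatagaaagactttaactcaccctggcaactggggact
Olfr173: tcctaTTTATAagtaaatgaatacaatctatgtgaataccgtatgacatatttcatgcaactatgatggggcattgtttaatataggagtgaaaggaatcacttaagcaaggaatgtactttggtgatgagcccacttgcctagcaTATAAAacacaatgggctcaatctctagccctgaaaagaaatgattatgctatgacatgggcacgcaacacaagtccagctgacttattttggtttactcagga
Olfr722: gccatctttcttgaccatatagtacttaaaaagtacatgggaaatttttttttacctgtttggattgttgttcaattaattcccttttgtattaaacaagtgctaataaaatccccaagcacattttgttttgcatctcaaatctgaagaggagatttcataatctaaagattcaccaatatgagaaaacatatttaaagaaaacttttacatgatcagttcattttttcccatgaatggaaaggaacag
Olfr122: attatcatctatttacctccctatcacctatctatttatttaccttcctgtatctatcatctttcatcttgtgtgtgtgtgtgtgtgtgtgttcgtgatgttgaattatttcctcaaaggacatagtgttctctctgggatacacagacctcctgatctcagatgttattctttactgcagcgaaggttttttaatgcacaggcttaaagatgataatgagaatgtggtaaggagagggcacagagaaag
Olfr124: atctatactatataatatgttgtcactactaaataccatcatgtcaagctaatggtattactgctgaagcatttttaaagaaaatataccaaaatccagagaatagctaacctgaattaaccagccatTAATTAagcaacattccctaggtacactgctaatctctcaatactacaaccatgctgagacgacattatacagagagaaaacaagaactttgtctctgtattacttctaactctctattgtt
Olfr173 had TATAAA matches that began 245 and 104 bases before the start, and Olfr124 had a TAATTA match 122 bases before it. The windows of Olfr544, Olfr722 and Olfr122 held no match to the letters searched.

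A window was matched for 114 of the 129 members. In 80 of those the annotated start site stood at the letters ATG, as in gene models without an upstream exon. So only 34 members had a window that could lie before a transcription start. TATAAA stood in 13 of these 34 (38.2%), against 69 of the other olfactory receptor genes with such a window (30.7%). Over all genes, it stood in 3526 of the 30936 windows whose start was not at ATG (11.4%). TAATTA stood in 5 of the 34 (14.7%), against 41 other olfactory receptor genes (18.2%) and 1369 of all such windows (4.43%). The core palindrome bound by the Ebf transcription factors (TCCC and GGGA with 2 bases between) stood in 0 of the 34. It stood in 1 of 225 other olfactory receptor windows (0.444%) and in 243 of all such windows (0.785%). Matches were searched on both strands and are descriptions of letters, not of binding.

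Most members were dim. Their mean normalized log2 signals ran from 2.43 to 9.58, with quartiles of 3.02, 3.93 and 5.04. The median over all 16793 genes tested was 7.58, and 6 members exceeded it. There were 28 members below 3, 101 above 3, 61 above 4, 34 above 5, 15 above 6 and 3 above 8. The lowest signal that the flag called well above background was 2.09 to 2.24 on this scale, and 79 members were at least 2 times that signal on every array. A signal depends on the probe as well as on the transcript, so the order of the probes is an order of brightness and not of RNA amounts.

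**Figure D1:**
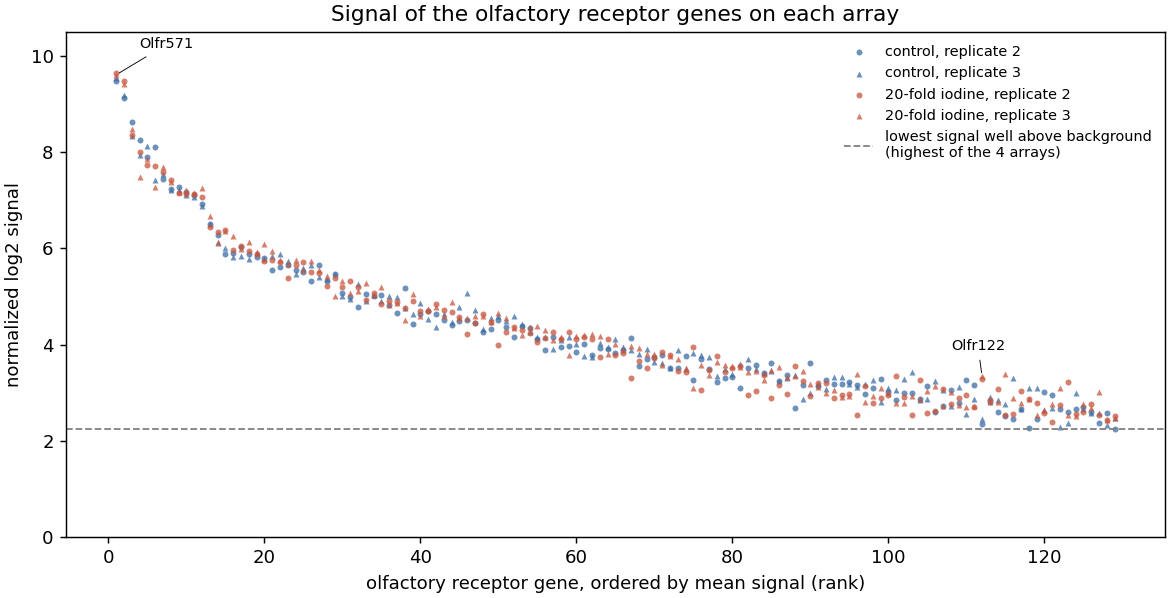
Normalized log2 signal (vertical axis) of the 129 olfactory receptor genes, ordered by mean (horizontal axis), with 1 point per array (control and 20-fold iodine, replicates 2 and 3) and the detection limit as a dashed line. The means fall from 9.58 to 2.43, and 34 of the 129 genes have a mean above 5.

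The 2 brightest probes belonged to class I receptors. Olfr571 read 9.49 and 9.54 in the controls and 9.65 and 9.61 in the iodine samples. Olfr544, known as a receptor for azelaic acid that is also expressed outside the nose, read 9.14 and 9.20 in the controls and 9.49 and 9.41 in the iodine samples. For both genes the 2 iodine arrays lay above the 2 controls.

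Next in brightness was Olfr173, which read 8.62 and 8.33 in the controls and 8.37 and 8.48 in the iodine samples. Olfr1500 read 8.26 and 7.95 against 8.0 and 7.50, and Olfr699 read 8.11 and 7.43 against 7.72 and 7.28. The groups of Olfr173, Olfr1500 and Olfr699 overlapped. Olfr173 and Olfr699 differed by more between their 2 controls than between the group means, and Olfr1500 by more between its 2 iodine arrays. Olfr1466, of the receptor subfamily MOR202, read 7.91 and 8.14 against 7.74 and 7.86, with both iodine arrays below the controls.

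The remaining bright probes had close values within each group. Olfr279 read 7.44 and 7.54 in the controls and 7.59 and 7.70 in the iodine samples, and Olfr373 read 7.23 and 7.21 against 7.43 and 7.39. Both had the iodine arrays above the controls. Olfr1443 read 7.28 and 7.22 against 7.16 and 7.17, with the iodine arrays below, and Olfr744 read 7.17 and 7.12 against 7.14 and 7.21, with overlap.

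At the other end, the members just inside the detection limit had lowest processed signals of 4.98 for Olfr1122, 4.98 for Olfr159, 5.06 for Olfr9, 5.10 for Olfr978 and 5.19 for Olfr32. The genes just outside it failed on a single array, where they read 5.40 for Olfr576 and 5.05 for Olfr740 (both on control replicate 2) and 5.0 for Olfr338, 4.78 for Olfr1143 and 4.70 for Olfr513 (on iodine replicate 3). The signals of the genes on either side of the limit thus overlapped. In all, 868 olfactory receptor genes were flagged on 0 arrays, 25 on 1, 25 on 2, 23 on 3 and 129 on 4.

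The count of detected olfactory receptor genes per array was 171 and 175 in the controls and 157 in each iodine sample. Over all probes, 37893 and 37921 were flagged in the controls and 37533 and 37751 in the iodine samples. The flags were set before the signals were scaled. There were 11 olfactory receptor genes detected on both controls and neither iodine array, among them Olfr1006, Olfr1312 and Olfr836. The opposite pattern held for 3, Olfr1484, Olfr74 and Olfr806. The same split was not counted over all genes, so 11 against 3 is a description only. The brighter group means of these genes were at most 3.02. Olfr806 read 1.54-fold higher in iodine, with group means of 3.02 and 2.39 (limma with Benjamini-Hochberg adjustment, adjusted p = 0.668). Olfr1006 was at least 1.41-fold lower in iodine, with means of 2.19 against 2.73 in the controls (adjusted p = 0.668). Both genes were picked by flags in a single group and entered the fit through that group alone. Their direction was therefore set by the choice, and their p-values are no test of it. A ratio given as "at least" sets the brighter mean against the detection limit and is not a confidence limit. For Olfr806 the dim signal lay above that limit, so its ratio is that of the group means.

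Other chemosensory receptor families had shares on either side of that of the olfactory receptors. Of the vomeronasal receptor genes, 19 of 168 Vmn1r (11.3%) and 15 of 90 Vmn2r genes (16.7%) were well above background on all 4 arrays. Of the taste receptor genes, 3 of 35 Tas2r (8.57%) and 1 of 3 Tas1r genes were. The trace amine receptors, Taar, gave 0 of 14, and the formyl peptide receptors, Fpr, gave 1 of 6.

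**Figure D2:**
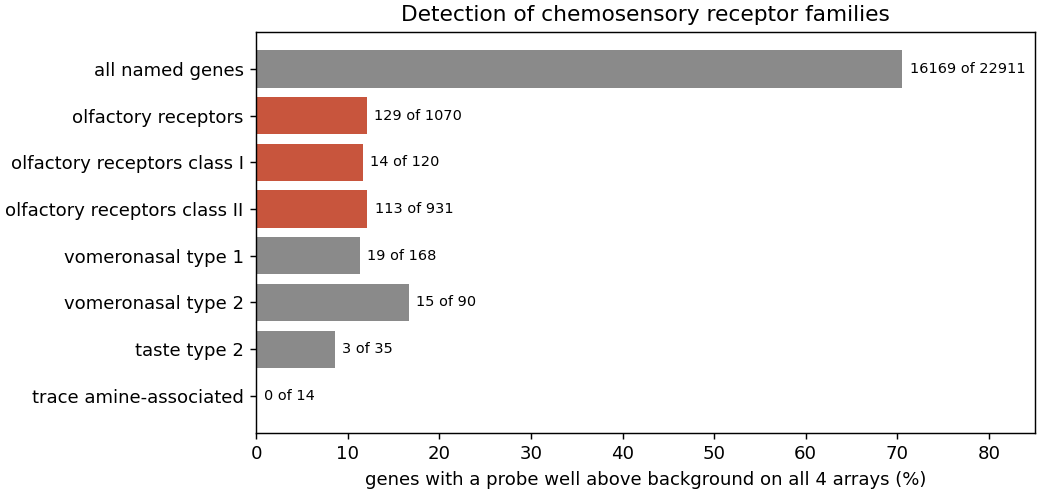
Share of genes of each chemosensory receptor family with a probe well above background on all 4 arrays, in percent, beside the share over all named genes. Olfactory receptor genes (12.1%) lie between Vmn1r (11.3%) and Vmn2r (16.7%), and all named genes are at 70.6%.

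A list of 19 olfactory receptor genes was fixed by name, with earlier results of these data known. Of these, 18 had a probe and 4 were members, namely Olfr122, Olfr287, Olfr544 and Olfr1507. Olfr287 read 5.56 and 5.85 in the controls and 5.75 and 5.94 in the iodine samples. Olfr1507, the much studied receptor MOR28, read 2.44 and 3.30 against 2.55 and 2.89. The groups overlapped for both genes. There were 11 genes flagged on 0 arrays, among them Olfr2, the octanal receptor I7, Olfr73, the eugenol receptor mOR-EG, and Olfr78, a receptor for short-chain fatty acids known from kidney and carotid body. Olfr78 read 0.17 to 0.23, close to the negative control spots, whose medians were -0.08 to 0.06. Olfr558 was detected on 3 arrays and Olfr559 and Olfr806 on 2.

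By class, 14 of 120 class I genes (11.7%) and 113 of 931 class II genes (12.1%) were members, and 2 of 19 without a subfamily number were. The median signal was 4.39 for the class I members and 3.83 for the class II members. At least 1 member came from 82 of the 223 receptor subfamilies with a probe. Subfamily MOR253 had 6 members of 10 genes, MOR103 had 7 of 16, MOR264 had 4 of 16, MOR171 had 5 of 36 and MOR256 had 5 of 46. Genes of a subfamily are close in sequence, and whether a probe also binds a relative was not tested, since the probe sequences were not used here.

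Olfactory receptor genes lie in clusters on the chromosomes. Among the members, 39 (30.2%) had another member as the next olfactory receptor gene on either side, compared with 198 of the 941 genes that were not members (21.0%). Those 39 formed 18 pairs and 1 run of 3, Olfr1121, Olfr1122 and Olfr1123. A detected gene of another family was the direct neighbour of 9 members (6.98%) and of 51 others (5.42%). There were 5 members (3.88%) that overlapped another gene, against 29 of the others (3.08%), and where a probe lies in both genes their signals cannot be told apart. The overlapping genes included Olfr1507 with Tcra, Olfr32 with Olfr1270 and Olfr524 with Cd163l1.

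Only 4 members had a second probe. The second probes of Olfr1036, Olfr1115 and Olfr1333 were flagged on 0 arrays, with means of 0.08, -0.06 and 0.50. The second probe of Olfr288 was flagged on 2 arrays and differed by -0.80 between the groups, against -0.29 for the brighter probe. For all 4 genes, membership therefore rested on 1 of 2 probes.

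Between the groups, no member passed the threshold. In limma with Benjamini-Hochberg adjustment over 16793 genes, 0 of 129 members had an adjusted p under 0.05, and so did 0 of all genes (0.0%). At an unadjusted p under 0.05 there were 13 members (10.1%), against 7.38% of all genes tested. Of these 13, 9 were higher in iodine (6.98% of members, against 3.89% of all genes) and 4 were lower (3.10%, against 3.49%). The members' share lay on either side of that of all genes, depending on the fit. Robust variances with an intensity trend gave 5 members (3.88%, against 7.52% of all genes), and leaving out iodine replicate 3 gave 21 (16.3%, against 7.29%).

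The median difference over the members, iodine minus control, was 0.02 on the log2 scale, against -0.01 over all genes tested. The quartiles were -0.14 and 0.15 and the range -0.48 to 0.92. The median standard error was 0.13, against 0.09 over all genes, and 93 members (72.1%) differed by less than 0.25, against 86.3% of all genes. Of the 129 members 1 was past a 1.5-fold change, Olfr122, against 337 of all 16793 genes tested.

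Groups without overlap were counted as well. Both iodine arrays exceeded both controls for 29 members (22.5%, against 17.9% of all genes) and lay below both for 21 (16.3%, against 21.9%), 50 in all (38.8%, against 39.9%). The difference exceeded 0 for 68 members (52.7%, against 45.7% of all genes) and was below 0 for 61 (47.3%, against 54.3%). This split depended on the processing. The normexp alternative replaced the scanner software's background correction, used median spot intensities and added an offset of 50. With it, 61 members were higher without overlap and 3 lower (22.6% and 19.1% of all genes). There, 112 differences exceeded 0 (86.8%, against 51.3% of all genes) and the median was 0.053, against 0.0034 over all genes. The parts of the offset and of the background step were not tested. The shares of all genes are not matched to the members for signal, and most members were dimmer than most genes. With quantile normalization 27 members were higher (20.9%, against 18.3% of all genes) and 27 lower (20.9%, against 22.7%), and the median was -0.030. With scaling to the median of detected probes 27 were higher (20.9%, against 13.9%) and 23 lower (17.8%, against 27.0%), and the median was -0.0092.

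**Figure D3:**
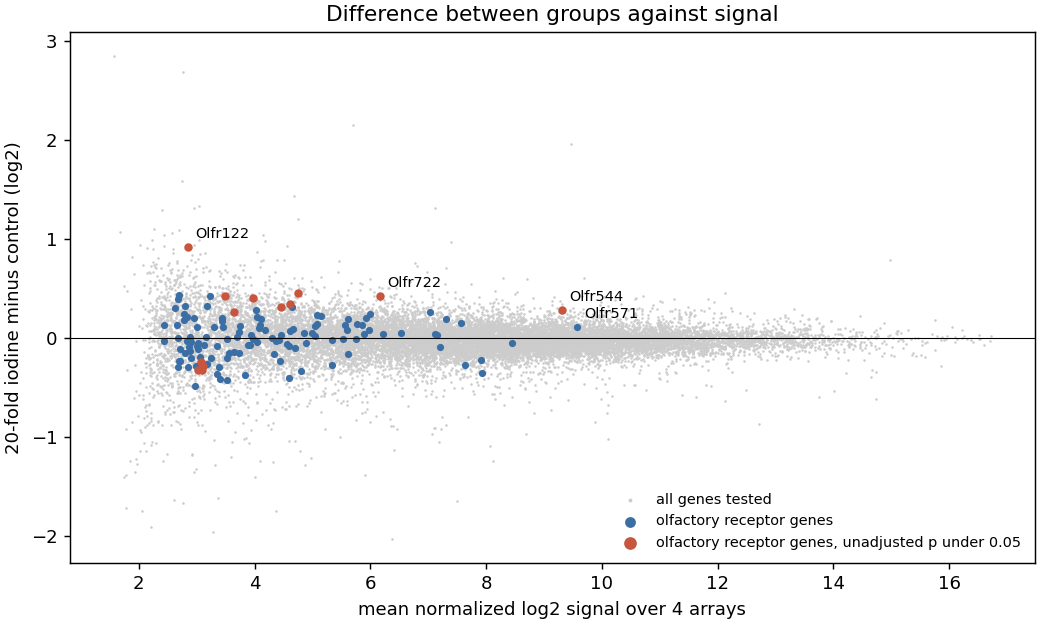
Difference between the groups, 20-fold iodine minus control on the log2 scale (vertical axis), against the mean normalized log2 signal over 4 arrays (horizontal axis), for all genes tested in grey, the olfactory receptor genes in blue and those with an unadjusted p under 0.05 in red. Olfr122 stands highest at 0.92, and 93 of the 129 members lie within 0.25 of 0.

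Olfr122, a class II receptor gene, had the largest difference among the members. It read 2.34 and 2.44 in the controls and 3.28 and 3.34 in the iodine samples, so both iodine arrays were above both controls by far more than the arrays of a group differed. Its difference was 0.92 ± 0.08 (SE, n = 2 arrays per group; 95% confidence interval 0.70 to 1.13), a 1.89-fold ratio, with an adjusted p of 0.668 in limma. The interval is not adjusted for the choice of the gene by its large difference. With robust variances and an intensity trend, its unadjusted p in limma was 0.0092, against 0.00026 in the fit reported. Its control signals, 5.32 and 5.53, were just above the detection limit, and with normexp, which adds an offset, its difference was 0.15.

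Olfr122 lies in a run of neighbours of which only some were detected. Olfr121 and Olfr125 were flagged on 0 arrays, and Olfr123 on 3, with 2.60 and 3.03 in the controls and 2.77 and 2.18 in the iodine samples. Olfr124, known as the broadly tuned receptor SR1 of the septal organ, was a member. It read 4.42 and 4.63 in the controls and 4.90 and 5.06 in the iodine samples, a difference of 0.46 ± 0.11 (SE, n = 2 per group; adjusted p = 0.668 in limma). Olfr122 and Olfr124 were thus both higher on the iodine arrays without overlap, while Olfr123 between them overlapped.

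Of the other members higher at an unadjusted p under 0.05, Olfr722 had the second smallest p. It read 5.89 and 6.01 in the controls and 6.39 and 6.36 in the iodine samples, a difference of 0.43 ± 0.08 (SE, n = 2 per group; adjusted p = 0.668 in limma). Olfr544, whose signals are given above, differed by 0.28 ± 0.08 (95% confidence interval 0.07 to 0.49; adjusted p = 0.668 in limma), and of the 13 it alone was among the 10 brightest members. The difference of Olfr544 lay between 0.25 and 0.32 in all 13 alternative fits, and that of Olfr722 between 0.28 and 0.49. Changes of filter, variance model, probe choice or replicate block left both differences unchanged, so those fits add nothing on their size. With robust variances and an intensity trend, limma gave an unadjusted p of 0.0043 for Olfr544 and 0.0056 for Olfr722. In the fit reported these were 0.019 and 0.0058.

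Dimmer members made up the rest of the higher group. Olfr609, of class I, read 3.79 and 3.74 in the controls and 4.12 and 4.22 in the iodine samples. Olfr930 read 3.23 and 3.34 against 3.77 and 3.65, and Olfr812 read 4.27 and 4.33 against 4.63 and 4.59. For all 3 the iodine arrays were above the controls, with differences of 0.41, 0.43 and 0.31. Olfr521 and Olfr845, like Olfr124 chosen after their values were seen because they complete the count of 9, differed by 0.27 and 0.34. With robust variances and an intensity trend, the unadjusted p in limma was 0.063 for Olfr609, 0.088 for Olfr930 and 0.090 for Olfr812. It was 0.23 for Olfr521 and 0.071 for Olfr845.

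The 4 members lower at an unadjusted p under 0.05 were all dim. Olfr1272 read 3.19 and 3.32 in the controls and 2.96 and 2.90 in the iodine samples, a difference of -0.32 ± 0.09 (SE, n = 2 per group; adjusted p = 0.668 in limma). Olfr484 read 3.21 and 3.18 against 2.98 and 2.93. Olfr649, of class I, read 3.10 and 3.27 against 2.78 and 2.93. In these genes, and in Olfr45 with 3.18 and 3.33 against 2.89 and 3.05, both iodine arrays were below both controls. Olfr1392, the next by p, read 3.15 and 2.86 against 2.69 and 2.73. With robust variances and an intensity trend, the unadjusted p of all 5 in limma was 0.22 to 0.34. With normexp the differences of all 5 were between 0.0073 and 0.025 (unadjusted p 0.69 to 0.91 in limma). Their sign turned, but the differences were too small to show a direction.

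**Figure D4:**
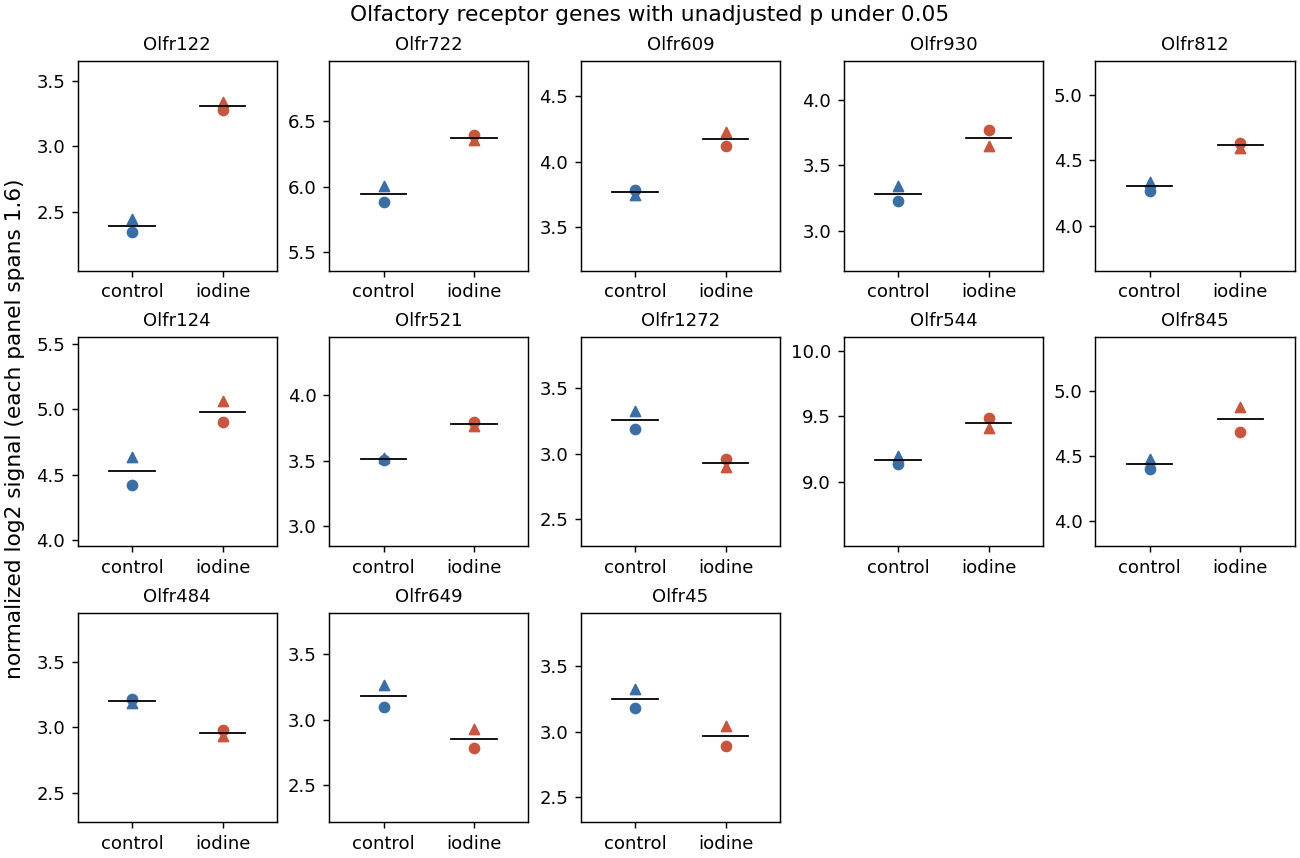
Normalized log2 signal of the 13 olfactory receptor genes with an unadjusted p under 0.05, with control and 20-fold iodine arrays side by side, circles for replicate 2, triangles for replicate 3 and a black line at each group mean. Every panel spans the same log2 range, and Olfr122 shows the widest separation, from 2.34 and 2.44 to 3.28 and 3.34.

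The 2 arrays of a group differed more for dim members than for bright ones. The median gap between the 2 controls was 0.28 for the 28 members below 3, 0.17 for the 40 between 3 and 4, 0.15 for the 46 between 4 and 6, and 0.06 for the 15 above 6. The gaps between the 2 iodine arrays were 0.25, 0.21, 0.15 and 0.11. Over all genes tested, the control gaps likewise went from 0.33 below 3 to 0.08 above 6. The widest gaps were in Olfr223, whose iodine arrays read 2.53 and 3.39, in Olfr1251, whose iodine arrays read 2.54 and 3.39, and in Olfr1507, whose controls read 2.44 and 3.30. In 20 members a group's arrays differed by over 0.5, and 16 of these had a mean below 4. The difference between the group means exceeded the wider of the within-group gaps in 33 members (25.6%, against 27.2% of all genes tested).

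Members that lie side by side did not all differ in the same direction. Of the 19 runs of neighbouring members, 7 had every member higher in iodine, 2 had every member lower and 10 were mixed, with no test. Olfr570 differed by 0.19 and its neighbour Olfr571 by 0.12, and Olfr812 by 0.31 and Olfr813 by 0.12. Olfr1443 and Olfr1444 differed by -0.09 and 0.08. Within the subfamilies the directions were mixed as well: 5 of the 7 MOR103 members were higher, with differences of -0.23 to 0.30, 4 of the 6 MOR253 members were higher, with -0.28 to 0.21, and 3 of the 5 MOR171 members were higher, with -0.37 to 0.43. Of the 14 class I members 9 were higher in iodine and 3 had an unadjusted p under 0.05. These were Olfr544 and Olfr609, which were higher, and Olfr649, which was lower. Of the 113 class II members 58 were higher and 10 had such a p. Over all genes tested, 45.7% were higher and 7.38% had such a p.

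Genes that olfactory receptors need in the nose were examined as well. Of 20 genes of olfactory sensory neurons and odorant signalling, 18 were well above background on all 4 arrays and 19 were tested. Of those 19, 11 were higher in iodine, 1 had an unadjusted p under 0.05, 0 had an adjusted p under 0.05, and the median difference was 0.03. Gnal read 10.61 and 10.52 in the controls and 10.67 and 10.64 in the iodine samples, and Adcy3 read 5.74 and 5.60 against 5.60 and 5.64. Cnga2, a subunit of the cyclic nucleotide-gated channel, read 5.40 and 5.56 against 5.62 and 5.52. Adcy3 and Cnga2 overlapped between the groups.

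Omp, the olfactory marker protein of mature sensory neurons, was the gene with the unadjusted p under 0.05. It read 4.07 and 4.67 in the controls and 4.96 and 5.0 in the iodine samples, a difference of 0.61 ± 0.22 (SE, n = 2 per group; adjusted p = 0.677 in limma). Rtp1 and Rtp2 carry olfactory receptors to the cell surface. Rtp1 was flagged on 0 arrays, and Rtp2 read 5.12 and 4.83 against 5.15 and 4.75. Stoml3, a protein of olfactory cilia, was flagged on 2 arrays and read 2.33 and 1.70 against 2.55 and 2.55.

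Support cells of the olfactory lining were looked for by their own genes. Of the 6 genes listed, 3 were well above background on all 4 arrays. Cyp2g1, an olfactory cytochrome P450, was not well above background on either control (-0.09 and 0.38) and read 3.38 and 2.60 in the iodine samples, at least 1.81-fold higher (adjusted p = 0.668 in limma). It entered the fit through its iodine arrays alone, so that p-value is no test of its direction. Cyp2a5, another P450 of the nasal lining and liver, read 0.51 and 2.32 against 4.78 and 3.43 and was flagged on 3 arrays. Obp1a, an odorant-binding protein, read 5.58 and 5.62 against 5.87 and 5.78, while Obp2a was flagged on 0 arrays. The summed signal of the list was 14.07 to 14.29 in the controls and 13.89 to 14.09 in the iodine samples, set by Ermn, which oligodendrocytes also express.

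Markers of other tissues were compared in the same way. The pituitary hormone genes Gh, Prl, Pomc and Cga were all higher on the iodine arrays, with a median difference of 1.70 and summed signals of 9.01 and 10.06 against 11.14 and 10.68. The 5 choroid plexus genes had a median difference of -0.35, with sums of 14.57 and 14.40 against 12.96 and 15.30. Of the 5 olfactory bulb genes 3 were well above background on all 4 arrays, and Cdhr1, a cadherin of bulb and retina, differed by 0.31 ± 0.08 (SE, n = 2 per group; adjusted p = 0.668 in limma). The other bulb genes all overlapped between the groups. Eomes and Doc2g differed by 0.57 and 0.12, and Th and Tbx21 by -0.03 and -0.08. The part of these tissues in the signals of the olfactory receptor genes was not tested.

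**Figure D5:**
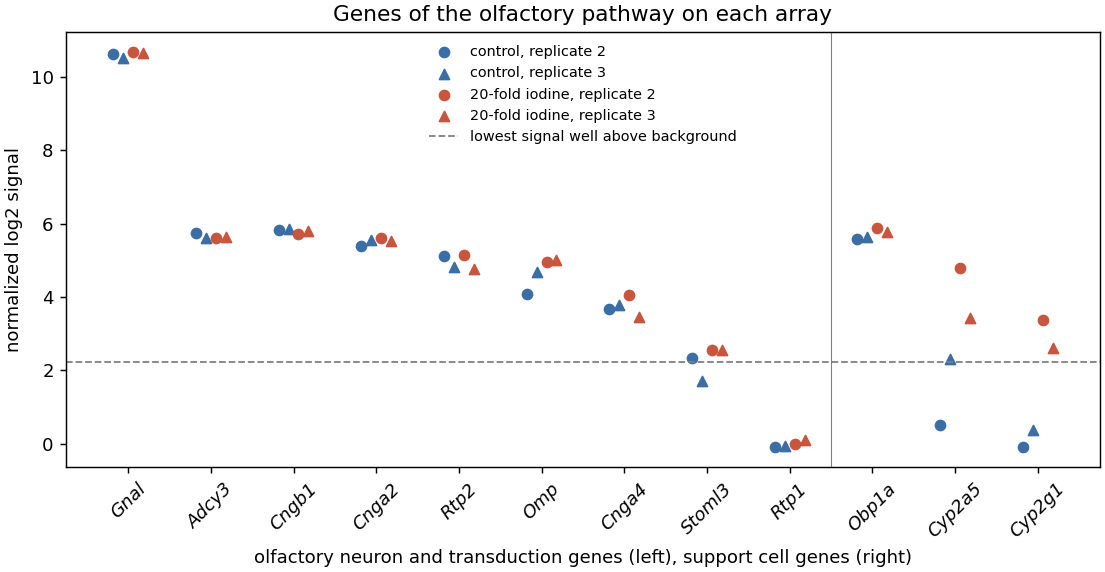
Normalized log2 signal of genes of olfactory neurons and odorant signalling (left of the line) and of support cells of the olfactory lining (right), with 1 point per array and the detection limit as a dashed line. Gnal lies near 10.6 on every array and Rtp1 below the limit, and Cyp2g1 is above the limit on the 2 iodine arrays alone.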

How the data were processed

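The labels place 2 arrays in the control group and 2 in the 20-fold iodine group. Each 1-colour Cy3 array came as scanner output from Agilent Feature Extraction (version 12.1.1.1, file headers). Levels are the processed signal, an intensity that per the file headers that software had background-subtracted, and were used together with the deposited flags for signal well above background and outlier spots. The deposited median spot and background intensity columns served 1 alternative, normexp with an offset of 50, chosen after seeing the data because a planned one needed mean signals that were not used here.

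Spots of a probe were averaged without outlier spots, and log2 signals were scaled to each array's 75th percentile (158.8 and 154.2 in the controls, 149.7 and 144.3 in iodine). RefSeq names (assembly GRCm38.p6), found through transcript accessions, were given to 32994 of 56605 probes (58.3%). The array design names an older build, so no coordinates of its probes are given. A receptor's class came from its MOR synonym, class I below MOR100.

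Probes well above background on at least 2 arrays were tested, the brightest per gene, 16793 genes in all, with limma 3.58.1 in R 4.3.3 (lmFit and eBayes, two-sided, Benjamini-Hochberg adjustment over all genes, threshold 0.05). The code was tested on simulated data. Files were read with data.table (1.17.8), and other steps used Python 3.11.15, pandas 2.3.3, numpy 2.4.6 and matplotlib 3.10.9. Alternatives covered background, scaling, filter, variance model, probe choice, the replicate block, each array left out and the detection limit.

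Named were the 10 brightest members, the 5 higher and 5 lower with the smallest unadjusted p, the 3 with the widest gap within a group, 5 on each side of the detection limit and a list of 19 receptor genes. The members and lists were chosen with earlier results of these data known.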

Additional observations from a re-analysis of the deposited data

How the results depend on the processing

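No olfactory receptor gene passed the adjusted threshold of limma in any of the 13 alternative fits. The number of members with an unadjusted p under 0.05, 13 in the fit reported, was 5 with robust variances and an intensity trend (3.88%, against 7.52% of all genes), and 14 to 21 with each array left out (10.9 to 16.3%, against 5.48 to 7.29% of all genes, with 21 without iodine replicate 3). The median difference, 0.02, was 0.053 with normexp and -0.030 with quantile normalization, and -0.0044 to 0.051 with each array left out. The number of detected genes, 129, was 202 when 1 array sufficed, 259 above the highest negative control spot and 79 at 2 times the lowest signal well above background, and 133 to 137 with each array left out. Of 216 differences of 24 named genes under the alternatives that kept all arrays, 211 kept their direction. Most of these could not turn, because changes of filter, variance model, probe choice or replicate block left the differences of these genes unchanged. Only normexp, quantile normalization and scaling to the median of detected probes moved them. The 5 that turned did so with normexp, namely Olfr45 (0.0077), Olfr1272 (0.019), Olfr484 (0.025), Olfr649 (0.0073) and Olfr1392 (0.018), and the cause was not tested. These values all lay below the members' median of 0.053 with normexp. With each array left out, Olfr173 ranged from -0.20 to 0.093, Olfr699 from -0.61 to 0.073, Olfr287 from -0.0051 to 0.29 and Olfr744 from -0.0038 to 0.063. Arrays with the same replicate number did not deviate together over the genes tested (correlation of deviations -0.02). With 2 arrays per group this cannot show whether the samples were paired, and the labels do not say. With the replicate block 18 members had an unadjusted p under 0.05 (14.0%, against 6.31% of all genes) and 0 an adjusted one. The comparison of gene names by the array's own name column was not run, because names came from accessions alone. Signal over background limits the dim members, since 50 of the 129 were below 2 times the lowest signal well above background on at least 1 array.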
